A study of Sus scrofa with 20 samples.

Results

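In LLC-PK1 cells, 160 transcripts lay on opposite sides of the control after siRNA against polycystin-1 (siPC1) and siRNA against polycystin-2 (siPC2), out of 46295 transcripts listed and 20292 with a mean of at least 1.3 CPM (reads scaled to a common library total, without length correction) over the 20 libraries. Of these, 69 were higher with siPC1 and lower with siPC2 than the control, and 91 were lower with siPC1 and higher with siPC2. A transcript was taken when the group means of log2(CPM + 0.5) for siPC1 and for siPC2 each differed from the control by at least 0.5, with opposite signs, and when all siPC1 libraries lay on the same side of all siPC2 libraries. The siPC1 replicate 1 library, the shallowest, was not used for this last condition. The values of the control, siPC1 and siPC2 libraries therefore chose the members, and they are given below as a description without a test. The siMRTF-A libraries took no part in the choice except through the mean CPM.

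Polycystin-1, a large membrane protein, and polycystin-2, a cation channel, associate with each other and act at the primary cilium and in other membranes of kidney tubule cells. Inherited loss of function of either gene causes autosomal dominant polycystic kidney disease. Myocardin-related transcription factor A (MRTF-A) is a cofactor of serum response factor (SRF) that is held in the cytoplasm by monomeric actin and enters the nucleus when actin polymerizes. The comparison with siMRTF-A asked whether the transcripts still differed between siPC1 and siPC2 when MRTF-A was targeted as well.

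LLC-PK1 is a porcine proximal tubule epithelial line, and every library came from this 1 line, transfected with siRNA, serum-starved and assayed at 48 h. RNA came from whole cultures, so a change in some of the cells and a change in all of them cannot be told apart. The groups were siNR (a non-related control siRNA at 200 nM, 4 libraries), siPC1 (150 nM, 5 libraries, replicates 1, 2, 3, 4 and A2), siPC2 (100 nM, 3 libraries, replicates 2, 3 and 4), siPC1+siMRTF-A (siPC1 at 150 nM, 4 libraries) and siPC2+siMRTF-A (siPC2 at 100 nM, 4 libraries). The doses given for siNR and for each polycystin siRNA differed, so target and dose cannot be told apart. The study's methods also state that siNR was matched in concentration in each experiment, which the doses given for the RNA-Seq do not show. No group received siMRTF-A without a polycystin siRNA. The doses given do not show whether the total siRNA amount was equal with and without siMRTF-A, so MRTF-A targeting and total amount cannot be told apart. Groups and their sizes are those of the sample labels. The study's own account of the RNA-Seq gives other sizes for most groups and does not say which libraries they hold, and every n here rests on the labels. Nothing in the labels says that replicates came from separate cultures, so the p-values measure only the spread between libraries. The transcript identifiers could not be paired with gene names here, so neither the silencing of the targets nor the tubule identity of the cells was checked, the functions of the members are not given, and members of 1 gene may be counted more than once.

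Library totals ran from 4421001 estimated reads in siPC1 replicate 1 to 71007731, with a median of 37523941. The next lowest was siPC2 replicate 2 at 11790504. These libraries also followed the rest of their groups less closely (r = 0.903 and r = 0.947, in that order), as did siPC1 replicate 4 (r = 0.933), while r was 0.963 to 0.986 for all the others. The 1.3 CPM floor corresponds to 5.75 reads in siPC1 replicate 1 and to 15.3 reads in siPC2 replicate 2. Scaled by library totals, the median transcript lay above siNR by 0.13 in siPC1, 0.16 in siPC2, 0.15 in siPC1+siMRTF-A and 0.19 in siPC2+siMRTF-A on the log2 scale. With CPM scaled by TMM factors, which remove this shift, the same conditions gave 69 and 89 members, of which 52 and 67 were also members under library totals.

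**Figure D1:**
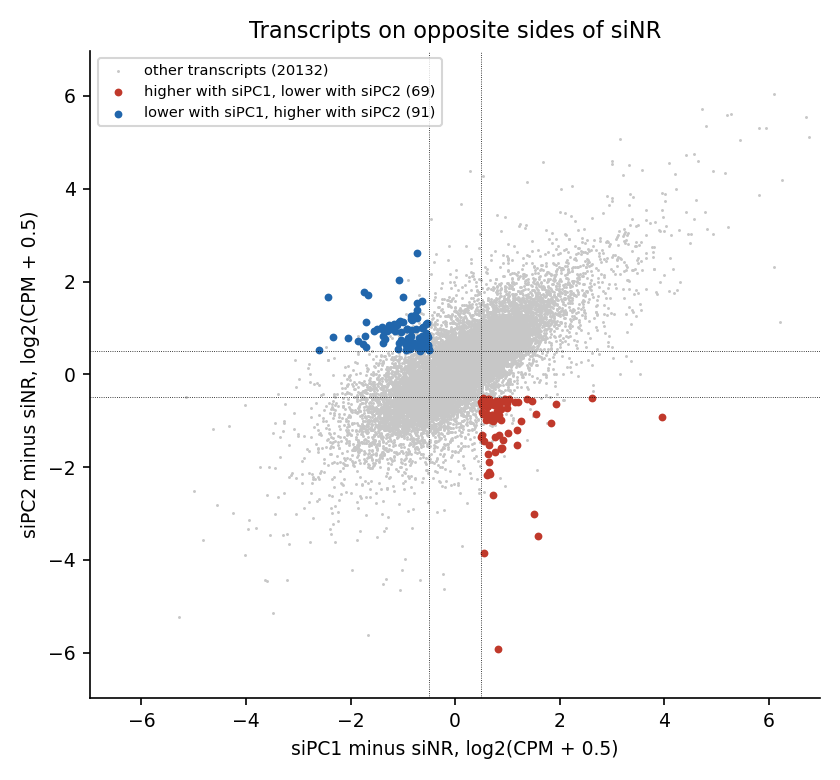
Group mean differences from siNR in log2(CPM + 0.5), siPC1 on the horizontal axis and siPC2 on the vertical axis, for the 20292 transcripts above the floor; dotted lines mark 0.5 on either side of 0. The 69 red and 91 blue transcripts sit in opposite corners, and the grey points in those corners are transcripts whose siPC1 and siPC2 libraries were not fully separated.

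The plot of both differences shows most transcripts along the diagonal, on the same side of siNR in both groups. Both differences subtract the same siNR mean and are not independent, so no likeness of siPC1 and siPC2 is read from it. Before the condition on the order of libraries, 117 and 144 transcripts met the rule. Among the 69 transcripts higher with siPC1, the difference from siNR ranged from 0.50 to 3.95 (median 0.77) in siPC1 and from -5.93 to -0.51 (median -0.87) in siPC2. Among the 91 transcripts lower with siPC1, it ranged from -2.60 to -0.50 (median -0.85) in siPC1 and from 0.51 to 2.61 (median 0.81) in siPC2. All 4 medians were below 1 in size, and both differences of a transcript were at least 1 in size for 7 and 13 transcripts. At the edge, the smallest size that entered was 0.50 and the largest that did not was 0.49, in both directions.

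The members were of low to moderate abundance. The mean level had a median of 11.4 CPM (range 1.34 to 387.6) in the first direction and of 5.90 CPM (range 1.304 to 160) in the second, beside 15.8 CPM over all transcripts above the floor. All siPC1 libraries except replicate 1 were separated from all siNR libraries for 40 of the 69, all siPC2 libraries for 35, and both for 26. In the other direction these counts were 42, 71 and 38 of 91. The side of siNR therefore rests on group means for most members. Replicate 1 of siPC1 lay on the siPC1 side of every siPC2 library for 54 of 69 and for 89 of 91. It was at 0 for 42 of the 91, which places it on the low side. The rule used all these libraries, and no shares over all transcripts are given for the separations, so the counts only describe the members.

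The most abundant member of each direction differed from siNR by less than 1 on the log2 scale. ENSSSCT00000041686.3 had the highest mean level among those higher with siPC1. Its level was 317, 367, 388 and 311 CPM in the siNR libraries. It was 551, 576, 610, 556 and 559 CPM with siPC1 (replicates 1, 2, 3, 4 and A2). It was 215, 232 and 215 CPM with siPC2. Every siPC1 library was above every siNR library, and every siPC2 library below, without overlap. With siMRTF-A it was 444, 445, 434 and 441 CPM beside siPC1, and 260, 278, 264 and 289 CPM beside siPC2. The siPC1+siMRTF-A libraries were again above all siNR libraries and the siPC2+siMRTF-A libraries again below, each nearer to siNR than without siMRTF-A. The siPC1+siMRTF-A level exceeded that of siPC2+siMRTF-A by 0.73 ± 0.06 (log2 fold change ± SE, n = 4 and 4, edgeR quasi-likelihood test, adjusted p = 9.34e-05).

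ENSSSCT00000031210.4 was the most abundant member in the other direction. The siNR libraries held 149.7, 168.6, 165 and 139 CPM. The siPC1 libraries held 105, 85.5, 91.2, 98.7 and 101 CPM, and the siPC2 libraries 247, 279.6 and 278.8 CPM. The 3 groups did not overlap. The level was 109, 95.3, 105 and 104 CPM with siPC1+siMRTF-A and 214, 223, 223 and 227 CPM with siPC2+siMRTF-A. The siPC1 and siPC1+siMRTF-A libraries overlapped (96.4 ± 8.02 CPM, SD, n = 5, against 103 ± 5.78 CPM, n = 4), whereas the siPC2 libraries were all above the siPC2+siMRTF-A libraries. The log2 fold change between the siMRTF-A groups was -1.06 ± 0.05 (SE, edgeR, adjusted p = 1.59e-05).

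The members with the largest differences behaved otherwise. ENSSSCT00000040415.3 had the largest smaller-of-both differences among those higher with siPC1. It stood at 18.2, 19.96, 21.5 and 14.98 CPM in siNR and at 54.0, 49.3, 65.2, 64.2 and 53.1 CPM in siPC1. In siPC2 it was listed at 0 in replicate 2, 18.8 CPM in replicate 3 and 0 in replicate 4. Replicate 3 thus lay within the siNR range, and the low siPC2 mean came from the 2 libraries at 0. The mean siNR level corresponds to 220 reads in siPC2 replicate 2 and to 538 reads in replicate 4, where a count of 0 allows at most 0.254 and 0.104 CPM (3 counts, counting error only). With siMRTF-A it was 49.4, 51.0, 52.0 and 48.6 CPM beside siPC1 and 22.9, 20.9, 20.5 and 23.0 CPM beside siPC2, so none of the 4 siPC2+siMRTF-A libraries was low. The siMRTF-A groups differed by 1.25 ± 0.06 (log2, SE, edgeR, adjusted p = 1.52e-05), with siPC1+siMRTF-A above siNR and siPC2+siMRTF-A at 21.8 ± 1.34 CPM against 18.7 ± 2.79 CPM in siNR (SD, n = 4 each). In the fit over all 20 libraries, which takes in the siPC2 libraries at 0, the same fold change had an adjusted p of 0.206 (edgeR).

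ENSSSCT00000012285.5 had the largest smaller-of-both differences among those lower with siPC1, at a much lower level. It was 0.851, 3.20, 2.70 and 0.732 CPM in siNR. In siPC1 it was listed at 0 in replicates 1, 3 and 4 and stood at 0.423 CPM in replicate 2 and 0.372 CPM in replicate A2, and in siPC2 it stood at 5.48, 6.73 and 8.32 CPM. The 3 groups did not overlap, but the siNR libraries spread widely. With siMRTF-A it was 0.985, 0.267, 0 and 2.13 CPM beside siPC1 and 4.56, 2.32, 3.33 and 6.60 CPM beside siPC2. These groups did not overlap either, and their log2 fold change of -2.29 ± 1.04 (SE) did not pass the edgeR test (adjusted p = 0.136). It did pass with DESeq2 (-2.27, adjusted p = 0.0483).

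**Figure D2:**
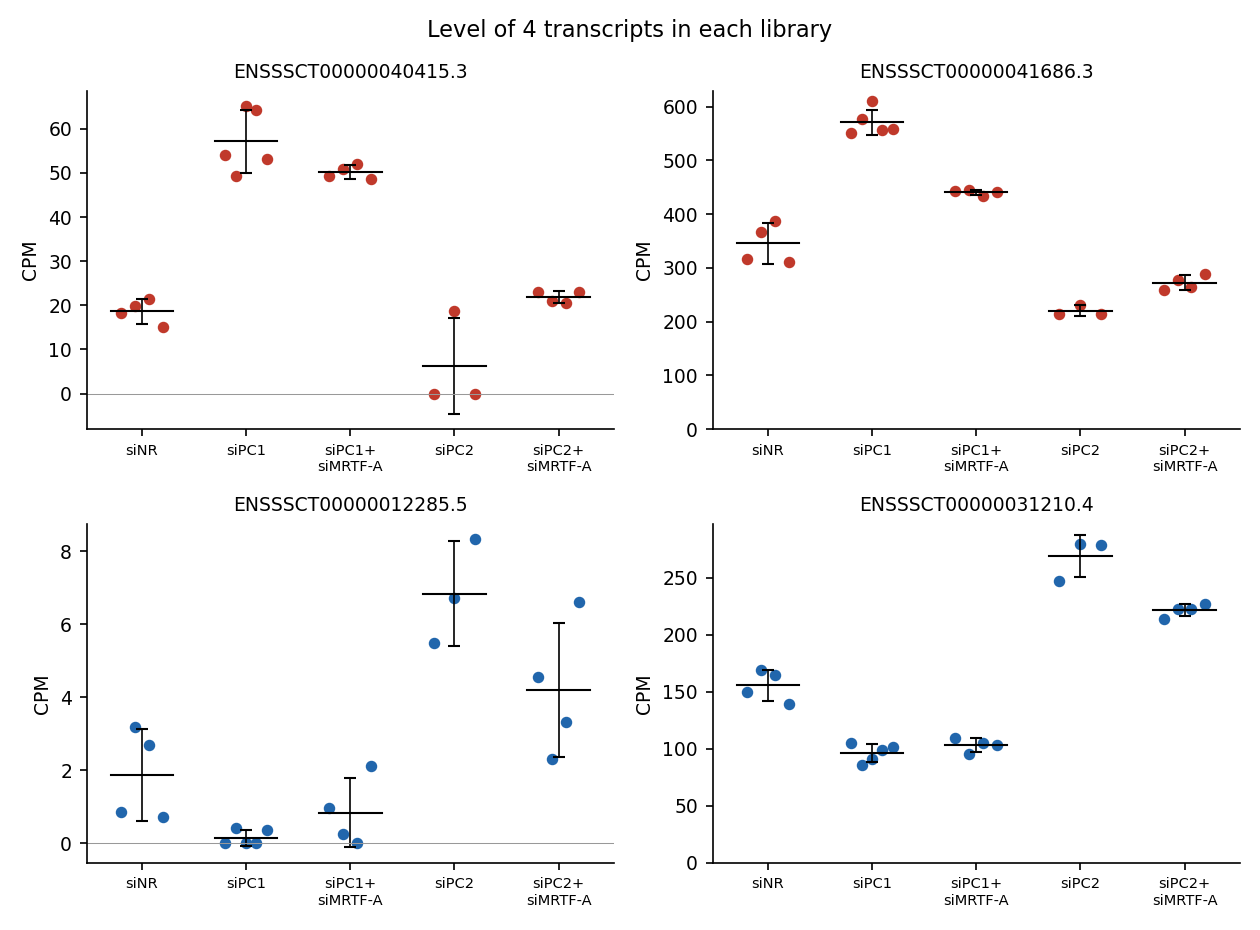
CPM (vertical axis, linear) of 4 transcripts in each library, grouped by siRNA along the horizontal axis; points are libraries in order of replicate, long bars the mean and whiskers 1 SD. ENSSSCT00000041686.3 and ENSSSCT00000031210.4 show tight groups, while the siPC2 group of ENSSSCT00000040415.3 holds 2 libraries at 0 and 1 at 18.8 CPM.

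Libraries at 0 next to libraries at the control level were common among the members. Of the 69 transcripts higher with siPC1, 35 were listed at 0 in at least 1 siPC2 library in which their mean siNR level corresponds to 10 or more reads, beside 4.34% of all transcripts above the floor. In 29 of these 35 another siPC2 library reached at least the lowest siNR library. Of the 91 transcripts lower with siPC1, 42 had such a 0 in a siPC1 library, beside 7.34% of all transcripts, and in 36 of these another siPC1 library reached at least the lowest siNR library. All 7 of the first direction and 10 of the 13 of the second with both differences of at least 1 had such a 0. Counting a 0 at any siNR level, the shallow libraries carried many of the zeros. In siPC2 replicate 2, 32 of the 69 were at 0, beside 3.75% of all transcripts (12 and 15 of the 69 in replicates 3 and 4). In siPC1 replicate 1, 42 of the 91 were at 0, beside 7.63% of all transcripts (6 to 17 of the 91 in the other siPC1 libraries). Since the rule asked for low values in these groups, the excess over all transcripts is part of the choice. The estimated counts divide reads among similar transcripts, and 57 of the 69 and 72 of the 91 had no whole-number value above 0 (82.6% and 79.1%, beside 73.2% of all transcripts). The part of this division in the zeros was not tested.

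**Figure D3:**
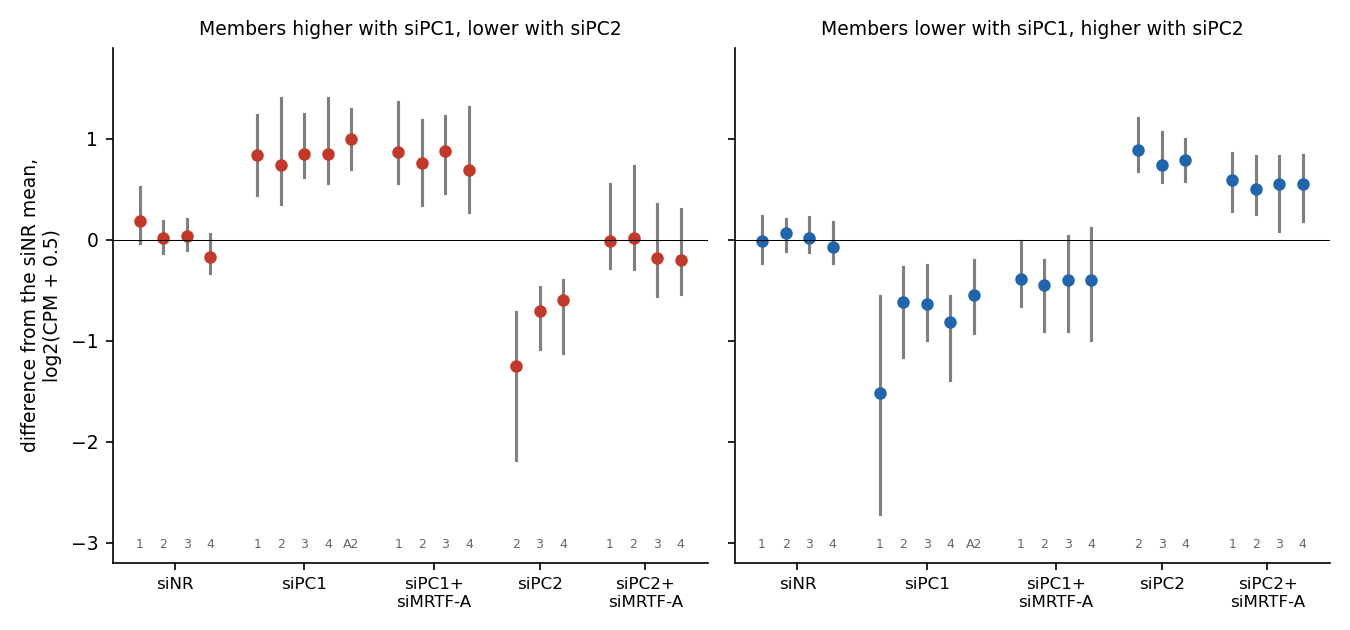
Median (points) and quartiles (grey lines) over the members of the difference from the siNR mean in log2(CPM + 0.5), by library (horizontal axis, replicate names at the foot), for the 69 transcripts higher with siPC1 (left) and the 91 lower with siPC1 (right). Replicate 2 of siPC2 on the left (-1.25) and replicate 1 of siPC1 on the right (-1.52) lie lowest, and the siMRTF-A libraries lie on or toward the side of their polycystin siRNA, apart from siPC2+siMRTF-A on the left, near 0, all before the shift of the median transcript is taken off.

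By library, the median over the 69 lay between 0.74 and 0.998 above siNR in the siPC1 libraries, and at -1.25, -0.71 and -0.60 in siPC2 replicates 2, 3 and 4. Over the 91 it was -1.52 in siPC1 replicate 1 and -0.81 to -0.54 in the other siPC1 libraries, and 0.74 to 0.89 in siPC2. Each shallow library was thus the lowest of its group in the direction in which that group was low, siPC2 replicate 2 for the 69 and siPC1 replicate 1 for the 91. Without both of them the rule gave 78 and 95 members, of which 46 and 63 were among the 69 and 91. Without siPC2 replicate 4 alone it gave 108 in the first direction, 64 of them among the 69. Without siPC2 replicate 3 alone it gave 98, 68 of them among the 69, and without siPC2 replicate 2 alone 68, 49 of them among the 69. Each such run also leaves fewer siPC2 libraries to meet the condition on their order. The cause of the difference between these runs was not tested.

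In the siMRTF-A libraries, which the rule did not use, 39 of the 69 transcripts higher with siPC1 were also higher with siPC1+siMRTF-A than with siPC2+siMRTF-A (56.5%, beside 4.36% of the 20292 transcripts tested; edgeR quasi-likelihood test over all of them, adjusted p of at most 0.05 and a log2 fold change above 0.6). Of the 91 lower with siPC1, 54 were lower with siPC1+siMRTF-A (59.3%, beside 4.87%). None was called in the opposite direction by edgeR, where 0 also had an unadjusted p under 0.05 in that direction, and none by DESeq2. The median log2 fold change was 0.85 over the 69 and -1.01 over the 91, beside 0.00 over all transcripts. The siPC1+siMRTF-A libraries were all above the siPC2+siMRTF-A libraries for 39 of 69 (background 13.01%) and all below for 66 of 91 (background 19.9%), and 1 of the 91 was fully separated the opposite way. The sign alone was that of siPC1 against siPC2 for 62 of 69 (background 45.0%) and for 86 of 91 (background 54.9%). DESeq2 called 40 and 64 (background 4.83% and 5.33%), and edgeR with all 20 libraries in the model called 31 and 37 (background 3.61% and 4.34%), the latter including the libraries that chose the members. With the shallow libraries left out of the rule, 39 of 78 and 54 of 95 passed in the siMRTF-A libraries.

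**Figure D4:**
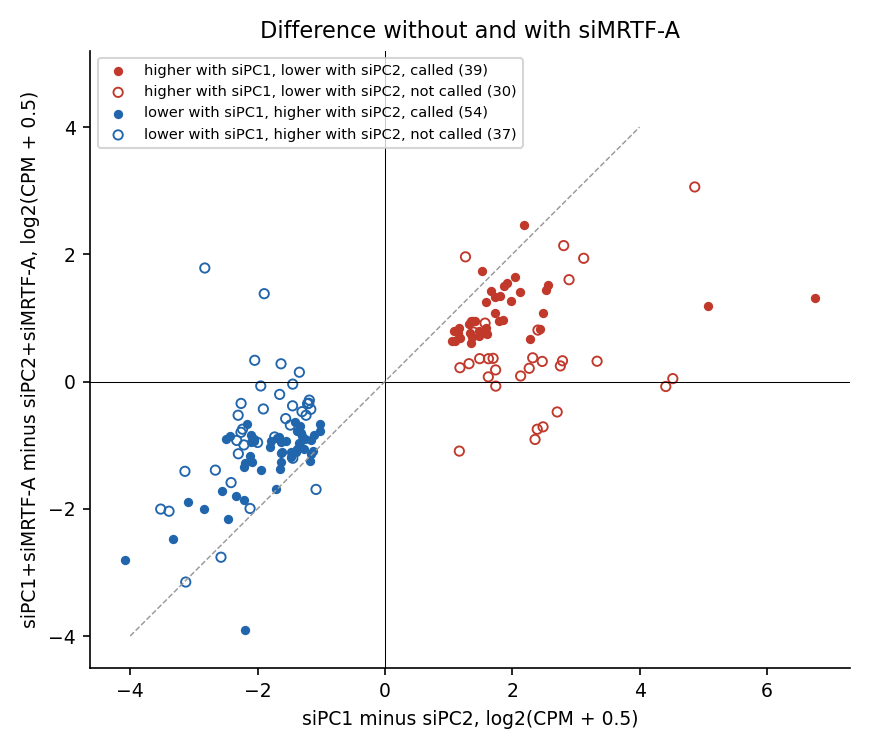
Each member's siPC1 minus siPC2 difference (horizontal axis) against its siPC1+siMRTF-A minus siPC2+siMRTF-A difference (vertical axis), both in log2(CPM + 0.5); filled points passed the edgeR test, open points did not, and the dashed line marks equal differences. Filled points number 39 of 69 (red) and 54 of 91 (blue), and most points lie nearer to 0 on the vertical than on the horizontal axis.

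Most members that passed had no 0, where siNR corresponds to 10 or more reads, in the group in which they were low. Of the 34 transcripts higher with siPC1 that had no such 0 in siPC2, 29 passed, against 10 of the 35 that had one. Of the 49 lower with siPC1 without such a 0 in siPC1, 40 passed, against 14 of 42. The shares that passed among all transcripts with and without such a 0 are not given. Whether this split is particular to the members is therefore not shown. Abundance went the same way, with 18 of 21 at or above the median level of all transcripts passing and 21 of 48 below it (background 4.27% and 4.45%), and 16 of 19 and 38 of 72 in the other direction (background 3.74% and 6.01%). Of the 7 and 13 transcripts with both differences of at least 1, only 2 and 5 passed. These splits were not tested against each other. The members that passed had log2 fold changes of 0.65 to 3.37 (median 1.06) in the first direction and had a median of -1.09 in the second, with -0.63 as the smallest in size. In the second, 1 transcript was at 0 in every siPC1+siMRTF-A library and its fitted fold change is no bound.

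The size of the siPC1 to siPC2 difference, which the rule chose to be large, had a median of 1.74 over the 69 and of -1.72 over the 91 in log2(CPM + 0.5), and with siMRTF-A the medians were 0.79 and -0.95. Across the 69 the difference without and with siMRTF-A correlated by Pearson's r = 0.14 (Spearman's rho = 0.09), and across the 91 by 0.44 (0.43). Both describe transcripts, which are not independent replicates, and the differences share no library. Over all 20292 transcripts r was 0.63. Each set of members was chosen for the same sign and a large siPC1 to siPC2 difference, which limits its range, so these values are not alike.

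Transcripts that separated siPC1 from siPC2 but were not members were compared in the same fit. They were at least 1 apart on the log2 scale with the same order of libraries, 419 higher with siPC1 and 579 lower. Of these, 267 (63.7%) and 346 (59.8%) passed with siMRTF-A, close to the 56.5% and 59.3% of the members. Their siMRTF-A libraries were fully separated for 303 (72.3%) and 434 (74.96%), beside 56.5% and 72.5% of the members. The median siPC1 minus siPC2 difference of these transcripts was 1.28 and -1.29, smaller than that of the members, and their median with siMRTF-A was 0.81 and -0.77. Against siNR, the medians of the 419 were 1.06 in siPC1 and -0.16 in siPC2. Those of the 579 were -0.95 and 0.30. Only members were left out, so transcripts on opposite sides of siNR by less than the rule asked could remain. The shares that passed therefore do not compare opposite-side with same-side transcripts.

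The positions of the siMRTF-A groups against siNR are described without a test because the siNR libraries entered the rule. They include the shift of the median transcript, 0.15 for siPC1+siMRTF-A and 0.19 for siPC2+siMRTF-A. Of the 69 transcripts higher with siPC1, 64 were above siNR with siPC1+siMRTF-A (median 0.72), 47 of them by at least 0.5. With siPC2+siMRTF-A 39 were below siNR and 30 above (median -0.10), with 12 at least 0.5 below and 16 at least 0.5 above. Both groups kept the side of their polycystin siRNA for 35 transcripts, both were above siNR for 29, both below for 4, and 1 had crossed sides. Each group was at least 0.5 from siNR on its own side for 6 (background 0.168%).

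Of the 91 transcripts lower with siPC1, 73 were below siNR with siPC1+siMRTF-A (median -0.47), 42 by at least 0.5, and 78 were above siNR with siPC2+siMRTF-A (median 0.53), 49 by at least 0.5. Both groups kept their side for 62, both were above for 16, both below for 11, and 2 had crossed sides. For 16 each group was at least 0.5 from siNR on its own side (background 0.241%). With the shift of the median transcript taken off each group, a step chosen after seeing the data, the medians of siPC1+siMRTF-A and siPC2+siMRTF-A were 0.58 and -0.30 for the 69, and -0.62 and 0.34 for the 91. Only these shifted medians were close to mirror images. After the shift both groups were on the side of their polycystin siRNA for 41 of the 69 and 58 of the 91. Both were above the shifted siNR level for 21 and 11, and both below for 5 and 19.

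Set beside the matching polycystin siRNA alone, the siPC2+siMRTF-A level of the 69 was higher than that of siPC2 for 66, by at least 0.5 for 46 (median 0.87), whereas siPC1+siMRTF-A and siPC1 differed by a median of -0.06, with 29 transcripts above and 40 below. For the 91, siPC1+siMRTF-A was above siPC1 for 75 (median 0.32) and siPC2+siMRTF-A below siPC2 for 76 (median -0.32). Over all transcripts both medians were near 0 (0.01 and 0.03). The siPC1 and siPC2 libraries had been chosen to be far from siNR, so a move toward siNR in other libraries is given as a value only. The library medians of siPC1+siMRTF-A ran from 0.69 to 0.88 for the 69 and from -0.45 to -0.39 for the 91, and those of siPC2+siMRTF-A from -0.20 to 0.01 and from 0.50 to 0.59, so no single library set these medians.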

How the data were processed

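Poly(A) RNA-Seq was done in 20 LLC-PK1 libraries. The deposited table holds estimated counts per Ensembl pig transcript, made by the authors with Salmon 0.14.1 against Sscrofa11.1 coding sequences. Reads had been trimmed with Trim Galore, and their quality was assessed with FastQC 0.11.8. CPM was the estimated count scaled by the column total, without length correction. The test, on counts rounded to integers, was edgeR's quasi-likelihood test, edgeR 4.0.16 (R 4.3.3; glmQLFit, TMM factors, Benjamini-Hochberg adjustment over 20292 transcripts) in the 8 siMRTF-A libraries only. SE was the absolute log2 fold change divided by the square root of F. Calls needed an adjusted p of at most 0.05 and a log2 fold change beyond 0.6. DESeq2 1.42.0, other filters, scalings, rule settings and left-out libraries were alternatives. In simulated counts for this comparison, 81.0% of 200 transcripts changed by 1.5 (log2) were recovered with 6 false calls. This change was larger than the members' medians of 0.85 and -1.01, and recovery at those sizes was not simulated. Members, lists and tests were chosen with earlier results of these data known. In each direction the member with the largest smaller-of-both differences and the most abundant member are named. Of the transcript identifiers, 0 matched the 15623 gene identifiers with names, so target genes, markers and sequences are not analysed here. The bounds given for a count of 0 cover counting error only, while SE and SD take in the spread between libraries. No replicates were identical: the lowest chi-square per degree of freedom between replicates was 9.40.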

Additional observations from a re-analysis of the deposited data

Results flagged for a closer look

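The median over the 91 transcripts lower with siPC1 was -1.52 in siPC1 replicate 1 (log2 difference from the siNR mean), far from the other 4 siPC1 libraries for a group of 5, with a gap of 0.725 of the group's range. This was 1 of 24 groups examined. The siPC1 values chose these members, and this library was left out of the condition on the order of libraries. The flag is therefore a description, and no chance rate is given for it. The library has 4421001 estimated reads, and 42 of the 91 transcripts are at 0 in it, beside 7.63% of all transcripts above the floor. Without it the rule gave 83 members, of which 50 were called.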

How the results depend on the processing

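Calls among the 69 ranged from 31 (all 20 libraries in 1 model, all of them among the 39) to 40 (DESeq2, or no fold threshold), and among the 91 from 37 (all 20 libraries, all among the 54) to 64 (DESeq2). With no fold threshold 40 and 57 were called, beside 13.8% and 15.1% of all transcripts. With differences of at least 1 in the rule, 7 and 13 members were left, 2 and 5 of them called. With a mean CPM of at least 5, 47 and 48 members were left, 32 and 35 of them called (68.1% and 72.9%, beside 4.35% and 4.56% of transcripts at that level). Leaving out 1 library at a time in the rule gave 66 to 108 members higher with siPC1 (108 without siPC2 replicate 4) and 83 to 130 lower. Leaving out 1 siMRTF-A library gave 37 to 39 and 44 to 53 calls. Leaving out both shallow libraries was chosen after seeing the data. ENSSSCT00000040415.3 lost its call with all 20 libraries (1.24, edgeR adjusted p = 0.206) and ENSSSCT00000012285.5 gained one with DESeq2 (-2.27, adjusted p = 0.0483). The replicate block gave 39 and 52 calls, 38 and 51 of them shared. Deviations of siMRTF-A libraries with the same number correlated by 0.331, 0.0579, 0.0231 and 0.118, and not every library correlated best with its own number, so the numbers were not taken as pairs. Depth is lowest in siPC1 replicate 1 and siPC2 replicate 2, without which 64 and 49 of the 69, and 69 and 83 of the 91, were still members.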
